A study of Homo sapiens with 6 samples.

Results

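GDP-mannose and GDP-fucose are the activated sugars from which cells build mannose and fucose into glycoproteins and glycolipids. The 9 genes described here follow the route that makes them: MPI, PMM1, PMM2, GMPPA and GMPPB up to GDP-mannose, GMDS and GFUS from GDP-mannose to GDP-fucose, FPGT in the salvage of free fucose, and SLC35C1 in the transport of GDP-fucose. They were chosen by their place in this route, with earlier results of these data known. All 9 were measured, each by a single probe set (a group of array probes for the same transcripts), out of 927 named genes and 1259 probe sets. MPI overlaps FAM219B in the RefSeq annotation, GMPPB overlaps RNF123 and GMDS an unnamed locus, and whether their probes bind those transcripts was not determined.

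The samples were 2 populations of RKO, an established human colon cancer cell line, with 3 arrays each. RKO C2 (C2 below) is a clonal population. RKO C2 F3 (F3 below) was derived from C2 by fluorescence-activated sorting of cells with low u-PAR, the urokinase receptor. The study asked which enzyme of glycosylation is deficient in cells whose u-PAR protein does not mature fully and is degraded early. The labels call F3 a population in the design and clonal in the sample titles, and describe no sorted control. They name no treatment and give no source culture for the single arrays.

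MPI, an isomerase, converts fructose phosphate to mannose 6-phosphate. Phosphomannomutase moves the phosphate, GDP-mannose pyrophosphorylase adds the nucleotide, and GDP-mannose is then used directly, used through dolichol-phosphate-mannose, or converted to GDP-fucose. Inherited defects of PMM2, MPI and SLC35C1 are known causes of congenital disorders of glycosylation.

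Array medians lay between 5.48 and 5.51 on the log2 scale, and the median SD between arrays of a population was 0.0828. Of 12 colon epithelium markers only 4 (MUC1, MUC2, MUC13 and LGALS4) were measured under a name here, with population means from 4.12 to 7.11. Only MUC1 (7.10 in C2 and 7.11 in F3) lay above the range of the leukocyte markers given next. The labelled cell type could thus be checked only in part, and these levels do not establish it. Of 9 leukocyte markers 7 were measured, with means from 2.69 to 5.80 and summed log2 levels of 29.3 to 29.7 in C2 and 29.5 to 29.9 in F3. Of 8 fibroblast and endothelial markers 7 were measured, with means from 2.27 to 5.15 and sums of 24.7 to 25.2 in C2 and 24.3 to 24.7 in F3. No marker of the 3 lists passed the test. Before adjustment, limma put CD72, a B cell marker, and ICAM2, an endothelial one, under 0.05. Their log2 changes, F3 minus C2, were 0.23 with no overlap of the populations (limma adjusted p = 0.73) and -0.20 with overlap (limma adjusted p = 0.84). F3 lay above C2 without overlap for 2 of the 7 leukocyte markers (CD72 and CD22), against 3.81% of all probe sets. Both were dim, with signals at percentiles 24.2 and 31.6 of the table. The leukocyte markers did not move together: 4 of the 7 changes were negative, with CLEC4D at -0.14, and the median was -0.01. The part of such cells in the values below was not tested. The values come with no detection call, so no marker could be called absent.

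None of the 9 genes passed the test of F3 against C2, and all of their changes were small. At an adjusted p under 0.05 in limma (a linear model whose variances are stabilised across probe sets, with Benjamini-Hochberg adjustment over all 1259), 0 of 9 passed, against 0.0794% of all probe sets. In bulk RNA, fewer cells that express a gene and less RNA per cell cannot be told apart, here and in what follows. The log2 changes, F3 minus C2, ran from -0.17 for GMDS to 0.07 for GMPPB, with a median of -0.03 beside -0.0064 over all probe sets. Of the 9 changes, 5 were negative, where 54.6% of all probe sets were. At an unadjusted p under 0.05 the number was 1 of 9 (GMDS, lower in F3), against 5.4% of all probe sets in either direction, 3.49% lower in F3 and 1.91% higher. The 95% intervals of all 9 lay within 1.3-fold in either direction, as did those of 95.2% of all probe sets. The precision is limited by the number of arrays, and the intervals describe the spread between these arrays only.

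**Figure D1:**
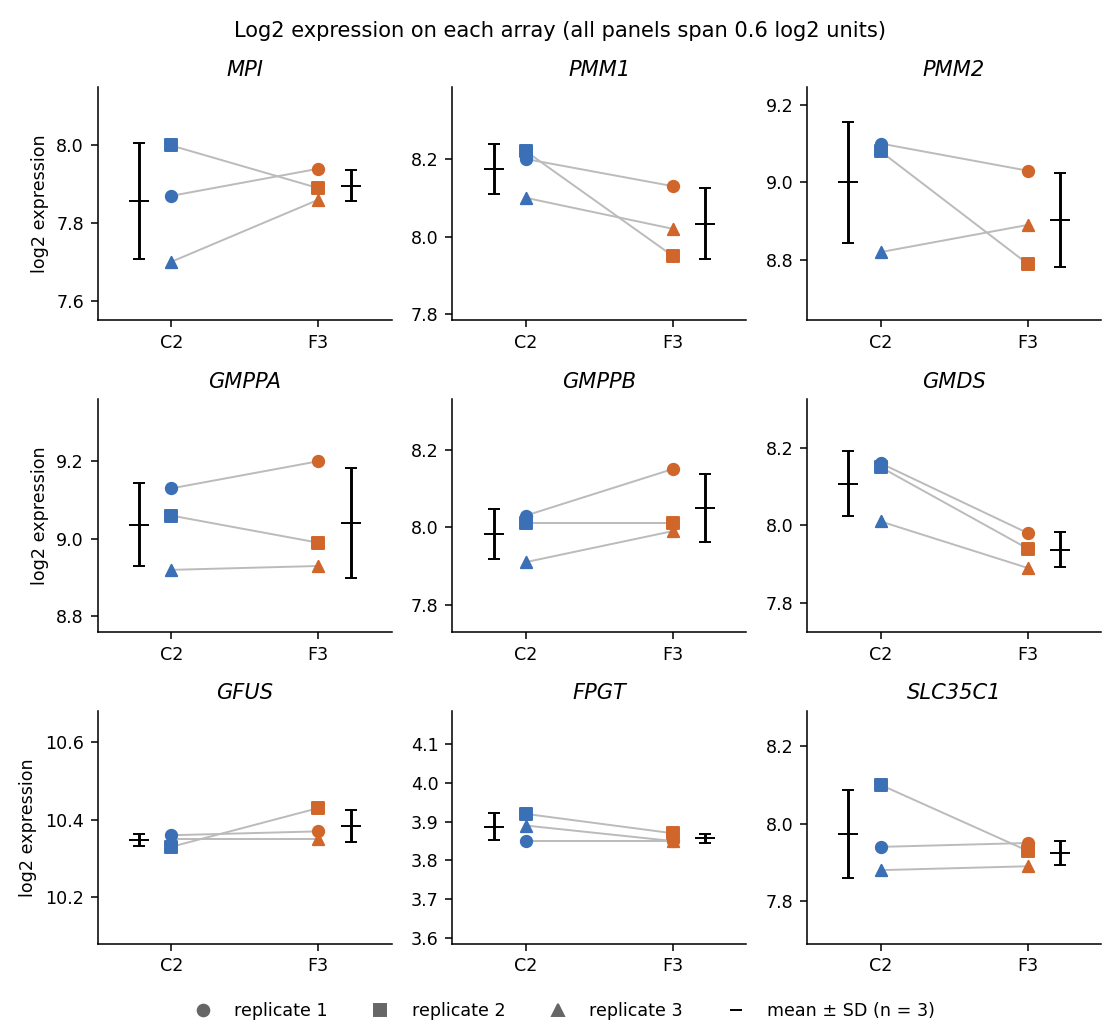
Log2 expression (vertical axis, each panel spanning the same range) of the 9 genes on each array of C2 and F3. Marker shapes give the replicate number, grey lines join arrays of the same number, and black bars are the mean ± SD of 3 arrays. GMDS is the 1 gene whose 3 F3 arrays all lie below the 3 C2 arrays.

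The supply of mannose 1-phosphate depends on MPI and the phosphomannomutases. MPI read 7.87, 8.0 and 7.70 on the log2 scale on C2 arrays 1 to 3 and 7.94, 7.89 and 7.86 on F3 arrays 1 to 3. The F3 values lay inside the C2 range, and C2 array 3 was the lowest of the 6. The change was 0.04 (SE 0.08, 95% interval -0.14 to 0.22, limma adjusted p = 0.9985) and was -0.04 without C2 replicate 3, so no direction can be given.

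PMM2 is the main phosphomannomutase of most tissues, and PMM1 is its paralogue. PMM2 read 9.10, 9.08 and 8.82 in C2 and 9.03, 8.79 and 8.89 in F3. The populations overlapped, and the low values were C2 array 3 and F3 array 2. PMM2 had a log2 change of -0.10 (SE 0.09, 95% interval -0.31 to 0.11, limma adjusted p = 0.97), and its SD within populations, 0.139, was the highest of the 9 genes. The change was -0.19 without C2 replicate 3, and -0.05 and -0.04 without C2 replicate 1 and F3 replicate 2. A decrease of PMM2 by 1.24-fold is the largest that this interval includes.

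PMM1 read 8.20, 8.22 and 8.10 in C2 and 8.13, 7.95 and 8.02 in F3. Between arrays of the same number F3 was lower each time, with differences of -0.07, -0.27 and -0.07, yet F3 array 1 lay above C2 array 3. The log2 change of PMM1 was -0.14 (SE 0.07, 95% interval -0.29 to 0.01, limma adjusted p = 0.97). All 3 pair differences had the same sign for 29.9% of all probe sets.

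GDP-mannose pyrophosphorylase joins mannose 1-phosphate to GTP. GMPPB is its catalytic subunit, and GMPPA is a homologue known to restrain it when GDP-mannose is plentiful. GMPPA read 9.13, 9.06 and 8.92 in C2 and 9.20, 8.99 and 8.93 in F3. The population means of GMPPA, 9.04 ± 0.10 and 9.04 ± 0.14 (SD, n = 3 each), differed by 0.00091 on the log2 scale, with a 95% interval of -0.19 to 0.20. That sign turned with array weights and with some arrays left out.

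GMPPB read 8.03, 8.01 and 7.91 in C2 and 8.15, 8.01 and 7.99 in F3. The log2 change of GMPPB was 0.07 (SE 0.06, 95% interval -0.08 to 0.22, limma adjusted p = 0.97). It was 0.02 without F3 replicate 1, 0.03 without C2 replicate 3 and 0.12 after repeated quantile normalization. F3 was higher in the pairs of arrays 1 and 3, by 0.12 and 0.09, and the arrays of number 2 differed by -0.00015.

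GMDS, the dehydratase that commits GDP-mannose to the fucose branch, gave the largest change of the 9 genes. It read 8.16, 8.15 and 8.01 in C2 and 7.98, 7.94 and 7.89 in F3. All 3 F3 arrays lay below all 3 C2 arrays, though F3 array 1 and C2 array 3 were only a few hundredths apart. GMDS was the 1 of 9 genes whose populations did not overlap, where 10.3% of all probe sets did not overlap, 6.51% having F3 lower and 3.81% F3 higher. The pair differences were -0.18, -0.21 and -0.12.

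The means of GMDS were 8.11 ± 0.08 in C2 and 7.93 ± 0.04 in F3 (SD, n = 3 each). F3 was thus 1.13-fold lower, a difference of -0.17 on the log2 scale with an SE of 0.06 and a 95% interval of -0.31 to -0.03. Its unadjusted limma p of 0.020 was the 23rd smallest of 1259, and its adjusted p was 0.84. A fit that blocks on the replicate number gave an adjusted limma p of 0.50. Over 14 alternative settings the adjusted p ran from 0.446 to 0.999, the change stayed negative, and the unadjusted p was under 0.05 in 10.

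GFUS, the epimerase-reductase that completes GDP-fucose after GMDS, read 10.36, 10.33 and 10.35 in C2 and 10.37, 10.43 and 10.35 in F3. Among the 9 genes only FPGT varied less within populations. The mean of GFUS was 10.35 ± 0.01 in C2 and 10.38 ± 0.04 in F3 (SD, n = 3 each). The log2 change of GFUS was 0.04 (SE 0.05, 95% interval -0.08 to 0.15, limma adjusted p = 0.998). Its interval includes no decrease beyond 1.06-fold, against 1.24-fold for GMDS.

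FPGT attaches the nucleotide to fucose 1-phosphate made from free fucose, and so feeds GDP-fucose without GMDS and GFUS. Its probe set was dim, with a signal at the 25.6th percentile of the table, and read 3.85, 3.92 and 3.89 in C2 and 3.85, 3.87 and 3.85 in F3. The log2 change was -0.03 (SE 0.05, 95% interval -0.14 to 0.08, limma adjusted p = 0.9985). Since RMA shrinks changes of dim probe sets and no detection call was given, little can be said of FPGT from these values. FPGT also shares its locus with the read-through gene FPGT-TNNI3K, and whether these probes bind its transcripts was not determined.

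SLC35C1 carries GDP-fucose into the Golgi, where most fucosyltransferases act. It read 7.94, 8.10 and 7.88 in C2 and 7.95, 7.93 and 7.89 in F3. The 3 F3 values lay within the range of C2, and C2 array 2 stood above the other 5. The log2 change of SLC35C1 was -0.05 (SE 0.07, 95% interval -0.20 to 0.10, limma adjusted p = 0.998) and was 0.01 without C2 replicate 2 and 0.0035 after repeated quantile normalization.

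**Figure D2:**
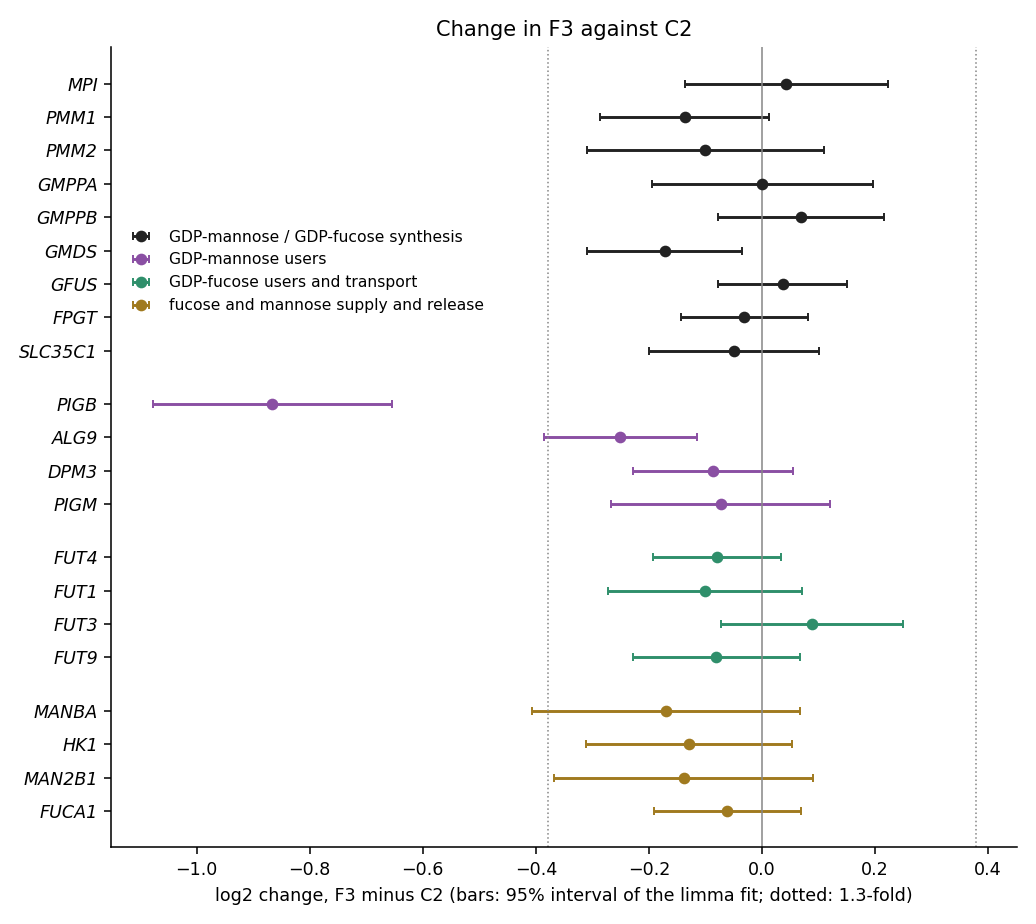
Log2 change, F3 minus C2 (horizontal axis), with the 95% interval of the limma fit, for the 9 genes and for up to 4 genes with the smallest p from each of 3 related lists. Dotted lines mark 1.3-fold; the intervals of the 9 genes lie inside them, and PIGB lies far outside at -0.87.

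The balance between neighbouring genes was compared within each array, for 3 pairs chosen by their place in the route after the values had been seen. The size of such a within-array difference has no meaning between probe sets, and only its shift between populations was read. The log2 difference GMDS minus GFUS was -2.20, -2.18 and -2.33 in C2 and -2.39, -2.49 and -2.47 in F3. The populations did not overlap, and the shift was -0.21. The exact two-sided permutation p was 0.1, the smallest that 3 against 3 arrays allow (0.3 adjusted over the 3 pairs). GMDS alone already separated the populations, with a change of -0.17 beside 0.04 for GFUS, so the shift largely repeats that result. How often other gene pairs would separate was not determined. For GMPPA minus GMPPB the shift was -0.07 (exact permutation p = 0.3, adjusted 0.45). For PMM1 minus PMM2 it was -0.04 (exact permutation p = 0.8, adjusted 0.8) and turned to 0.02 without C2 replicate 3. A design of this size cannot reach p under 0.05 in such a test. The permutation also shuffles all arrays without keeping same-numbered pairs together, so it ignores any dependence between them.

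On some arrays most of the 9 genes deviated from the population mean in the same direction. No correlation among the 9 genes is given here. Within C2, 7 of the 9 were lowest on array 3, all except GFUS and FPGT, where 33.5% of all probe sets were lowest on that array. Their median deviation from the C2 mean there was -0.09, against -0.0049 over all probe sets and 0.0003 over the 309 probe sets at least as bright as the dimmest of the 9 apart from FPGT. Within F3, 6 of the 9 were lowest on array 3, where 35.4% of all probe sets were. All 9 were below the population mean there, against 51.9% of all probe sets, with a median deviation of -0.03. FPGT, PMM2 and PMM1 were barely below it, at -0.0032, -0.0092 and -0.011. On F3 array 2, 5 of the 9 were below the mean, against 43.5% of all probe sets. On F3 array 1 the median of the 9 was 0.04, and GMPPA, PMM2, GMPPB and PMM1 stood highest, at 0.16, 0.12, 0.10 and 0.10. Leaving out each array in turn changed the sign of MPI, GMPPA and SLC35C1 and of no other gene among the 9. Array weights changed that of GMPPA alone, and a replicate block left every mean difference as it was.

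**Figure D3:**
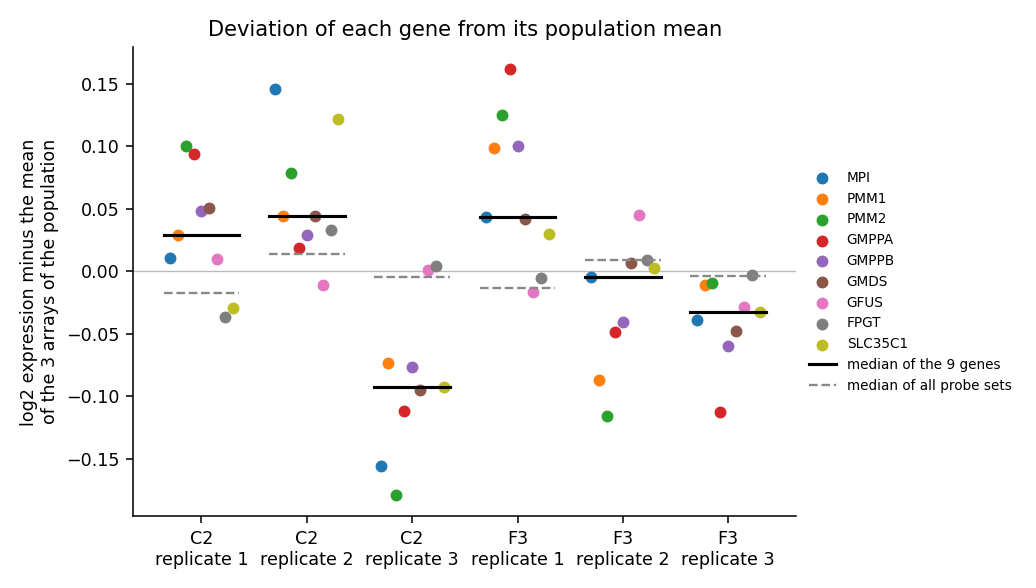
Log2 expression of each of the 9 genes minus its mean over the 3 arrays of the population (vertical axis), by array (horizontal axis). Solid lines are the median of the 9 genes and dashed lines the median of all 1259 probe sets; on C2 array 3 the median of the 9 was -0.09 and 7 of 9 genes lay below 0.

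Over the 6 arrays, PSMB3 (r = 0.981) and ANAPC5 (r = 0.966) were among the 3 genes, of 926 others, with profiles most like that of GMDS by Pearson correlation. PSMB3 is a proteasome subunit and ANAPC5 a subunit of the anaphase-promoting complex. Their log2 changes were -0.08 and -0.10, neither past the threshold. With 6 points, 926 candidates and arrays that share 2 populations and possibly joint processing, these likenesses are a description only.

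The list of genes that use GDP-mannose, directly or as dolichol-phosphate-mannose, was written with earlier results of these data known. It held the 1 probe set of 1259 that passed, from which no conclusion on these genes as a group can be drawn. Of 14 listed genes 10 were measured: 1 fell, 0 rose and 9 did not pass, with a median log2 change of -0.06. At an unadjusted limma p under 0.05 the number was 2 (PIGB and ALG9), both lower in F3. Of all probe sets, 5.4% were under it in either direction and 3.49% lower in F3. PIGB, the enzyme for the third mannose in the GPI anchor by which u-PAR sits in the membrane, went from 7.36 ± 0.09 in C2 to 6.49 ± 0.18 in F3 (SD, n = 3 each). Its log2 change was -0.87 (SE 0.09, limma adjusted p = 0.013), and with each array left out the change stayed between -0.96 and -0.79. The limma adjusted p missed the threshold without C2 replicate 2 (change -0.82, adjusted p = 0.057), C2 replicate 3 (-0.88, 0.155) or F3 replicate 1 (-0.85, 0.097). ALG9, a mannosyltransferase of the dolichol-linked N-glycan precursor, had a change of -0.25 (SE 0.06, limma adjusted p = 0.46), without overlap of the populations. F3 lay below C2 without overlap for 2 of the 10 genes (PIGB and ALG9), against 6.51% of all probe sets. DPM3, a subunit of dolichol-phosphate-mannose synthase, was at -0.09, and PIGM, the enzyme for the first mannose of that anchor, at -0.07, turning to 0.02 without F3 replicate 2.

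Of 14 genes listed as using or carrying GDP-fucose, 11 were measured. All of these were users, and the listed carrier, SLC35C2, was not measured under a name here. Of the 11, 0 passed in either direction, with a median log2 change of -0.05. At an unadjusted limma p under 0.05 the number was also 0, with and without the replicate block. FUT4, a fucosyltransferase of Lewis-type structures, was at -0.08 with F3 below C2 on all arrays (limma adjusted p = 0.97). It was the 1 gene of the 11 without overlap, where 10.3% of all probe sets did not overlap, 6.51% having F3 lower. FUT1, which makes the H antigen, was at -0.10, FUT3, the Lewis enzyme, at 0.09 (its dimmer probe set at -0.0088) and FUT9 at -0.08. POFUT1 and POFUT2, which put fucose directly on proteins in the ER, and FUT8, which adds the core fucose of N-glycans, did not pass either. Of 10 genes that supply or release mannose and fucose, 6 were measured and 0 passed, with 5 negative changes and a median of -0.10. At an unadjusted limma p under 0.05 the number was 0 without the replicate block and 2 with it (MANBA and MAN2B1), where 8.02% of all probe sets were under it with the block. Their blocked limma adjusted p was 0.516 and 0.559. MANBA and MAN2B1, lysosomal mannosidases, were at -0.17 and -0.14, the hexokinase HK1 at -0.13 and the lysosomal fucosidase FUCA1 at -0.06. Without C2 replicate 2 these 4 values were -0.06, -0.04, -0.05 and -0.02 in the same order.

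**Figure D4:**
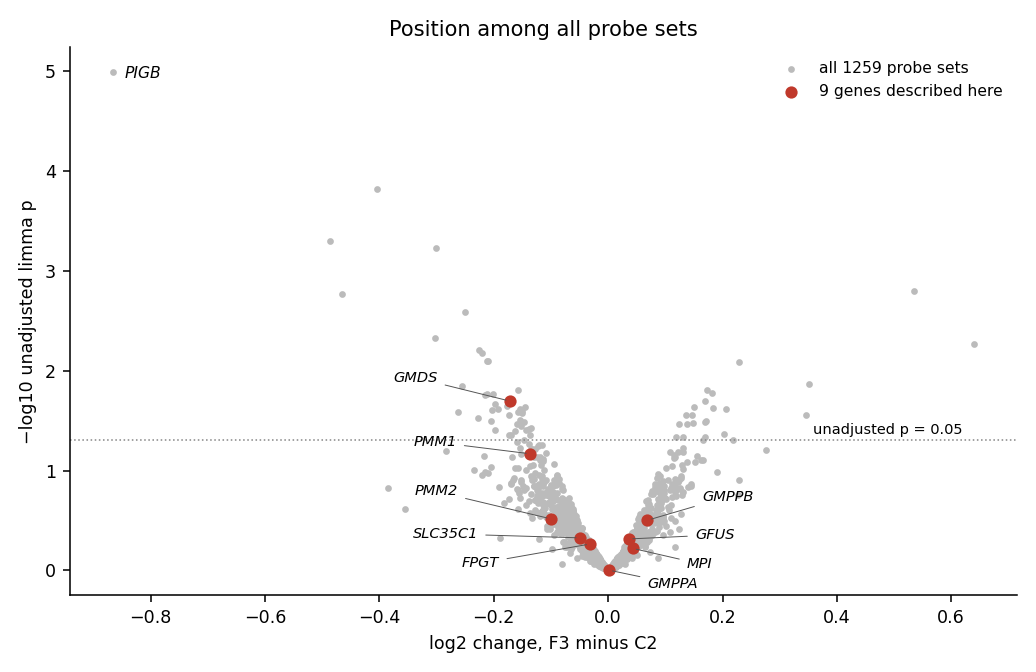
Each point is a probe set, with its log2 change, F3 minus C2 (horizontal axis), and −log10 of its unadjusted limma p (vertical axis); the 9 genes are in red and all 1259 probe sets in grey. The dotted line marks an unadjusted limma p of 0.05, which GMDS alone of the red points lies above; PIGB stands apart at the upper left.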

How the data were processed

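RNA for the 6 arrays was isolated with Trizol and turned into biotinylated cRNA by an Affymetrix procedure, per the labels. The deposited values are log2 expression; the submitters' processing notes name RMA (background correction, quantile normalization and summary of probes). Not given in the sources used here: the RMA version, probe set definitions, genome build and set of arrays processed jointly. RMA equalizes array distributions, so a shift of most genes would be removed.

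Accessions in the identifiers, without version, were matched to the RefSeq gene table of GRCh38.p14: 1043 of 1259 probe sets had 1 symbol, and the 216 others stayed in the tests unnamed. A list gene with several probe sets was represented by its brightest. Populations were compared in limma 3.58.1 (R 4.3.3; lmFit, eBayes, two-sided, adjusted over all probe sets, threshold 0.05). The script was tested on simulated data. Where arrays are not separate cultures, p-values measure only technical spread.

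Same-numbered arrays, which also share a label suffix, deviated together over all probe sets (r = 0.52, 0.18 and 0.26). All 6 of 6 arrays correlated best with their own number. The numbers were taken as pairs in the pair differences and the blocked fits only. Values are from the fit without a block unless stated, and that fit treats the arrays as unpaired. With the block the SE was 0.05 in place of 0.09 for GMPPA, 0.05 in place of 0.06 for GMDS and 0.05 in both fits for GFUS. The lowest blocked limma adjusted p of the 9 genes was 0.50.

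The genes and lists were chosen with earlier results of these data known. Named were all 9 genes, up to 4 genes of each of the 3 related lists with the smallest p, and the 3 profiles most like the gene with the smallest p, of which 1 is not reported here. Alternatives were the replicate block (fixed and random), centring on the median, a second quantile normalization, leaving out the dimmest 25% of probe sets, array weights, robust eBayes with an intensity trend, 1 row per gene and leaving out each array.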

Additional observations from a re-analysis of the deposited data

How the results depend on the processing

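Over 14 alternatives none of the 9 genes passed an adjusted limma p of 0.05, and for 6 of them the sign held throughout. The exceptions lay near 0, and the cause was not tested: GMPPA was at -0.01 with array weights and ran from -0.0799 to 0.0573 as each array was left out, MPI from -0.0355 to 0.115 and SLC35C1 from -0.0959 to 0.0117, the last also at 0.0035 after repeated quantile normalization. GMDS ran from -0.22 to -0.15 and PMM1 from -0.19 to -0.09 with 1 array left out. The number of the 9 genes with an unadjusted p under 0.05 was 1 with the settings of the report. It was 2 (GMDS and PMM1) with a random replicate block or array weights, and 0 after quantile normalization. With 1 array left out it was 0 to 2 (0 without C2 replicate 1, C2 replicate 2 or F3 replicate 3, and 2 without C2 replicate 3 or F3 replicate 1). Of all probe sets, 5.4% were under it with the settings of the report and 8.02% with the fixed replicate block, where 1 of the 9 genes was. That share was not determined for the other settings, so these counts cannot be set against the whole table. The replicate block, fixed or random, gave 2 probe sets past the threshold in place of 1 over the whole table and changed no call among the 9 genes; 1 array left out gave 0 to 2, and 0 to 1 among users of GDP-mannose. Alternatives for the related lists and the within-array differences were chosen after the data were seen. Among these, PIGM ran from -0.134 to 0.0161 and PMM1 minus PMM2 from -0.0717 to 0.0165 with 1 array left out. Median centring moved the median change of all probe sets by 0.0154 and quantile normalization by 0.00937.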
